A study of Mus musculus with 80 samples.

Results

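The regions described here are the 2-kb bins of an H3K9me2 ChIP-seq table that overlap the vomeronasal receptor genes of the mouse autosomes. A bin was counted when it touched the span, from start to end, of a gene of the expression table whose symbol begins with Vmn1r or Vmn2r, pseudogenes included. This rule used position only and no measured value of the mark. It found 825 of the 995960 autosomal bins of the table, 198 under Vmn1r genes and 627 under Vmn2r genes, with no bin under both families and 16 that also touched a gene outside them.

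The study followed mouse embryonic stem cells (ESCs) of the wild-type line E14 as they moved from serum medium to 2i, a serum-free medium in which MEK and GSK3 are inhibited. Both media held LIF, a cytokine that maintains ESCs. H3K9me2 ChIP-seq covered cells in serum, after 24 h of 2i and after long-term culture in 2i (LT2i), with 2 bound libraries and 1 input library for each medium. RNA-seq covered 12 E14 libraries, 3 in serum and 3 at each of 6, 24 and 72 h of 2i. All of these groups share the E14 background and no deletion. E14 is 1 established line, so every value concerns that line. The labels do not say whether replicate ChIP-seq libraries came from separate cultures, and p-values therefore measure the spread between these libraries.

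Vomeronasal receptors are G protein-coupled receptors of sensory neurons in the vomeronasal organ, which detects pheromones and other chemical signals between animals. Receptors of the first family (V1R, genes named Vmn1r) have their coding sequence in a single exon and act with the G protein subunit Gnai2. Receptors of the second family (V2R, Vmn2r) carry a large extracellular domain spread over several exons and act with Gnao1, and both signal through the cation channel Trpc2. Each neuron uses one or a few of these genes and keeps the others silent, and the genes lie in clusters of closely related copies. H3K9me2 is a mark of repressed chromatin laid down in large part by the G9a and GLP methyltransferases.

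The 325 autosomal genes (201 Vmn1r and 124 Vmn2r) comprised 152 on chromosome 7, 60 on chromosome 6, 48 on chromosome 17 and 33 on chromosome 13, with the other 32 spread over 7 chromosomes. One further gene lay on the X chromosome and was left out, and the symbol Vmn1r112 stood at 2 positions that were kept apart. The median span was 945 bp for a Vmn1r gene and 24176 bp for a Vmn2r gene, so that Vmn1r genes touched mostly 1 or 2 bins.

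Promoters of the family were poor in CG dinucleotides, as those of Olfr genes were. RefSeq promoters (build GRCm38.p6, the 250 bases before the start) were matched to 289 of 324 gene symbols. The median promoter held 1 CG in either family, against 6 over all 32851 promoters, and 29.8% of Vmn1r and 37.5% of Vmn2r promoters held none, against 7.87% of all. The hexamer TATAAA, searched on both strands, stood in 42.7% of Vmn1r and 21.4% of Vmn2r promoters and in 12.4% of all promoters. Olfr promoters also had a median of 1 CG, 44.2% held none, and 39.2% held TATAAA. Promoters are printed for 7 genes to which the results below return, because their H3K9me2 changed between media or their RNA did. They read 5′ to 3′ on the strand of the gene, and capitals mark each CG and each TATAAA (written TTTATA where it lies on the other strand).
Vmn1r65: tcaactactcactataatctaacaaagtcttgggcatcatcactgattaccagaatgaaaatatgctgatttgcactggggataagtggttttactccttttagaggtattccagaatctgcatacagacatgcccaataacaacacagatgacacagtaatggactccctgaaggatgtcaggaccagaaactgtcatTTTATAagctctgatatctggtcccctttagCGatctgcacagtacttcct
Vmn1r71: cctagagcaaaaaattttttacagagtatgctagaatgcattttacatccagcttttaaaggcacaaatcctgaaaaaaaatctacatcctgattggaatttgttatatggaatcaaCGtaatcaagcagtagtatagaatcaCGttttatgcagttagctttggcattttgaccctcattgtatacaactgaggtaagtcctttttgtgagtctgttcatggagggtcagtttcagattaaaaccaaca
Vmn2r55: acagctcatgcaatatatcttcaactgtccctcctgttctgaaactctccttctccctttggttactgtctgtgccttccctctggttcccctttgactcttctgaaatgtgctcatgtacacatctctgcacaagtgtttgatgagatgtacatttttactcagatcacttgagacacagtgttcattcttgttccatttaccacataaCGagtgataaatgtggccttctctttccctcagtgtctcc
Vmn2r60: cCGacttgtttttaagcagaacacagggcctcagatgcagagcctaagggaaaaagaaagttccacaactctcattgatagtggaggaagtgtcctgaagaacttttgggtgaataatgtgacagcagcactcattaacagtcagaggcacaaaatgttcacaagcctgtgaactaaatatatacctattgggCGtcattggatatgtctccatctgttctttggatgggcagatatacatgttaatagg
Vmn2r95: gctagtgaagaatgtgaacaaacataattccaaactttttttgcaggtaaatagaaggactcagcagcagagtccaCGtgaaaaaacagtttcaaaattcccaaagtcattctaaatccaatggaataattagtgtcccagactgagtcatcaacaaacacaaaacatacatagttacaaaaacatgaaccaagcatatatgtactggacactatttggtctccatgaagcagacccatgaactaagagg
Vmn2r103: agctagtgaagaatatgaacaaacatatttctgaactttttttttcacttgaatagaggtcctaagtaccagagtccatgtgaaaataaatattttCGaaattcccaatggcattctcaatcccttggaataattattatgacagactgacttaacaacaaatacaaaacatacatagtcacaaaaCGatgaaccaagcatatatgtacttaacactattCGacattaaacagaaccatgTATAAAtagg
Vmn2r1: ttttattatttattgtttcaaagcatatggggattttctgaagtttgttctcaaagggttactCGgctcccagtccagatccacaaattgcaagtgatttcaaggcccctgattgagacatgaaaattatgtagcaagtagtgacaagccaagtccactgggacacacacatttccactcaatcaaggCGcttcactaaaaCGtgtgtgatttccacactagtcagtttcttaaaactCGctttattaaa
These promoters lie at chr7:6011011-6011260 (Vmn1r65, minus strand), chr7:10749539-10749788 (Vmn1r71, minus), chr7:12684992-12685241 (Vmn2r55, minus), chr7:42116221-42116470 (Vmn2r60, plus), chr17:18423854-18424103 (Vmn2r95, plus), chr17:19773113-19773362 (Vmn2r103, plus) and chr3:64081392-64081641 (Vmn2r1, plus). They held from 1 to 4 CG each, with 4 in Vmn2r1 and 3 in Vmn2r103. Only the promoters of Vmn1r65 and Vmn2r103 held TATAAA among these 7. The promoters of Vmn2r95 and Vmn2r103 were identical at 204 of 257 aligned positions (79.4%), whereas the next most alike pair of the 7, Vmn2r1 and Vmn2r103, reached 56.8%.

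Much of the family could not be measured. A bin stood in the table only where every input held a scaled count of at least 8 reads, a level that the lowest input value showed. Of the 2183 bins of a 2-kb grid that touched a vomeronasal receptor gene, 825 (37.8%) were present, against 80.3% for Olfr genes, the olfactory receptors, and 90.8% for all autosomal genes. The share was 46.8% for Vmn1r and 35.6% for Vmn2r, and 148 of the 325 genes (99 Vmn1r and 49 Vmn2r) had no bin at all. Every bin of the gene was present for 78 Vmn1r genes and for 3 Vmn2r genes.

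Genes whose promoter shared a run of bases with the promoter of another gene were more often missing. A run of 50 bases was shared with the promoter of another gene in 74 of 178 Vmn1r promoters (41.6%) and 67 of 111 Vmn2r promoters (60.4%), against 10.06% of Olfr and 16.2% of all promoters. Among Vmn1r genes with such a run, 7 of 74 (9.46%) had a bin in the table, compared with 80 of 104 (76.9%) without one. For Vmn2r genes the shares were 29 of 67 (43.3%) and 41 of 44 (93.2%). Only promoters were compared, not the genes themselves. Reads of genes that are alike may be split between them by the authors' alignment, so values of single genes in these clusters are uncertain where copies are alike. The sources used here do not say how reads that match several places were treated.

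The 9 ChIP-seq libraries held from 14396552 to 23785128 reads in bins, and the median autosomal bin held 14 to 23 reads. Counts of the 2 bound libraries of a medium differed by more than sampling noise in each medium (chi-square per degree of freedom 1.09 in serum, 1.02 at 24 h and 1.08 in LT2i), so all were kept as separate libraries. No outside standard was added, so every H3K9me2 value is relative to the rest of its library, and a change of the total amount of the mark does not enter it. From western blot and immunofluorescence the paper reports that the total amount of the mark fell after the change of medium. A higher value between media therefore means higher relative to the rest of the library, not a gain in amount. The ESC markers Pou5f1, Sox2, Nanog, Esrrb and Zfp42 had mean RNA levels in serum of 5.80 to 8.29 on the authors' log2 scale per length. The feeder cell markers Col1a1, Col1a2, Thy1 and S100a4 ranged from -1.69 to 2.49. In these bulk samples fewer cells of a type and less RNA per cell cannot be told apart.

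As deposited, vomeronasal receptor bins carried H3K9me2 close to the input level and varied little. The bound minus input difference (log2, mean of the 3 media) had a median of 0.15 over the 825 bins, with quartiles of -0.20 and 0.49, against a median of 0.02 with quartiles of -1.07 and 0.52 over all autosomal bins. The medians of the families were alike, 0.14 for Vmn1r and 0.15 for Vmn2r. Bins more than 500000 bp from any gene had a median of 0.37, Olfr bins of 0.32, and bins of all other genes of -0.51.

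The distributions differed in width more than in centre. The standard deviation was 0.53 over vomeronasal receptor bins and 1.32 over all autosomal bins. Only 23 of the 825 bins (2.79%) lay below -1, where 25.9% of all bins lay, and 26 (3.15%) lay above 1, against 5.38%. Bins above 0.5 made up 24.2% and 26.1%. The histogram of bin values shows the left tail that all bins have and the vomeronasal and olfactory receptor bins lack.

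**Figure D1:**
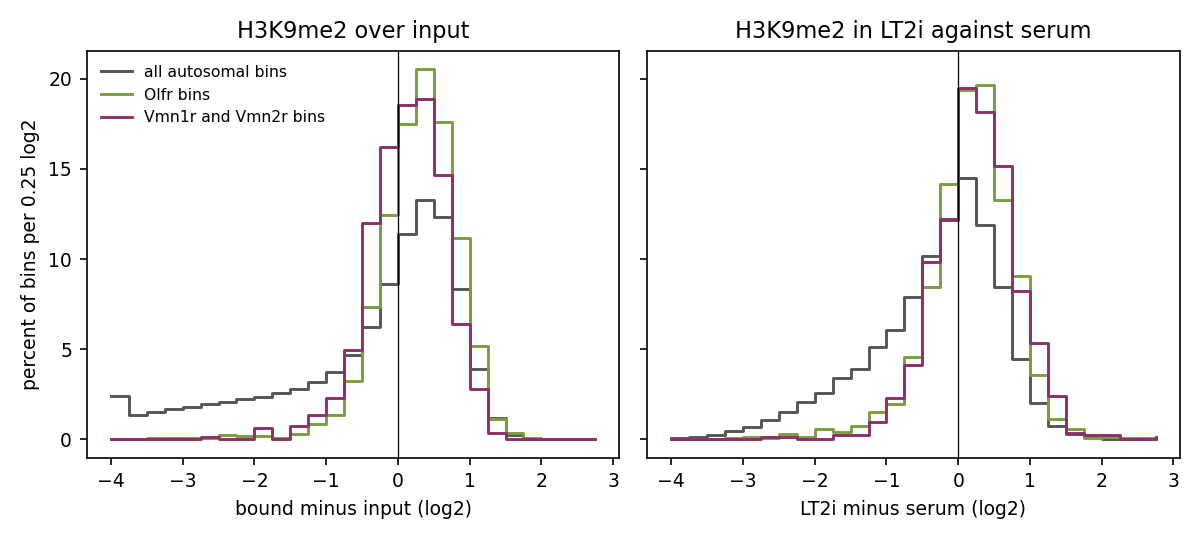
Distribution of 2-kb bins over the bound minus input difference (left, log2, mean of 3 media) and over the LT2i minus serum difference of bound libraries (right, log2), as percent of the bins of each set (all autosomal bins, Olfr bins, Vmn1r and Vmn2r bins). Receptor bins are narrow on the left (standard deviation 0.53 against 1.32) and lie to the right of all bins on the right (median 0.26 against -0.15).

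Bins between vomeronasal receptor genes of a cluster also lay close to the input level. Their median was 0.19 as the mean of the 3 media (3283 bins) and -0.003 in serum. Bins within 100 kb outside the clusters had a median of -0.19 (915 bins) with a lower quartile of -1.46. The bins holding a gene's start had a median of 0.12 for Vmn1r (91 bins, against 0.20 in the other 107) and of -0.12 for Vmn2r (45 bins, against 0.17 in the other 582). Input reads were fewer over the family, with a median input level of 4.14 (log2 scaled reads) against 4.54 over all bins. The floor of 8 scaled reads held for inputs and not for bound libraries, so bins were kept by their input reads. Input levels of 3 to 3.75 held 21.6% of the family's bins and 4.88% of all bins. The effect of this selection on bound minus input differences was not tested. In bins of an input level from 3 to 3.75 the median bound minus input difference was 0.24 for the family and 0.35 for all bins, and from 4.75 to 5 it was 0.11 and -0.37. From 4.25 to 4.5 the medians were 0.10 for the family and 0.17 for all bins. At matched input the family thus lay below all bins in every class up to 4.5, where most of its bins were. It lay above them in every class from 4.5 upwards.

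Over the course of 2i the median of the family lay higher relative to all bins of each library, as it did for similar regions. The median bound minus input difference was 0.08 in serum, 0.15 at 24 h and 0.26 in LT2i, while over all bins it was 0.04, 0.01 and -0.12. From serum to LT2i it went from 0.25 to 0.41 in Olfr bins, from 0.31 to 0.43 in bins far from genes, and from 0.00 to 0.32 in bins between vomeronasal receptor genes. By library, Vmn1r bins had medians of 0.10 and 0.14 in serum, 0.25 and 0.22 at 24 h, and 0.26 and 0.19 in LT2i. Vmn2r bins had medians of 0.02 and 0.15 in serum, 0.15 and 0.17 at 24 h, and 0.22 and 0.33 in LT2i. In both families each LT2i library lay above both serum libraries, and the 24 h libraries of Vmn1r did not separate from LT2i. The share of all autosomal reads that fell in the bins was 1.08 to 1.26 times the share in the input of the same medium for Vmn1r and 1.03 to 1.32 times for Vmn2r.

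**Figure D2:**
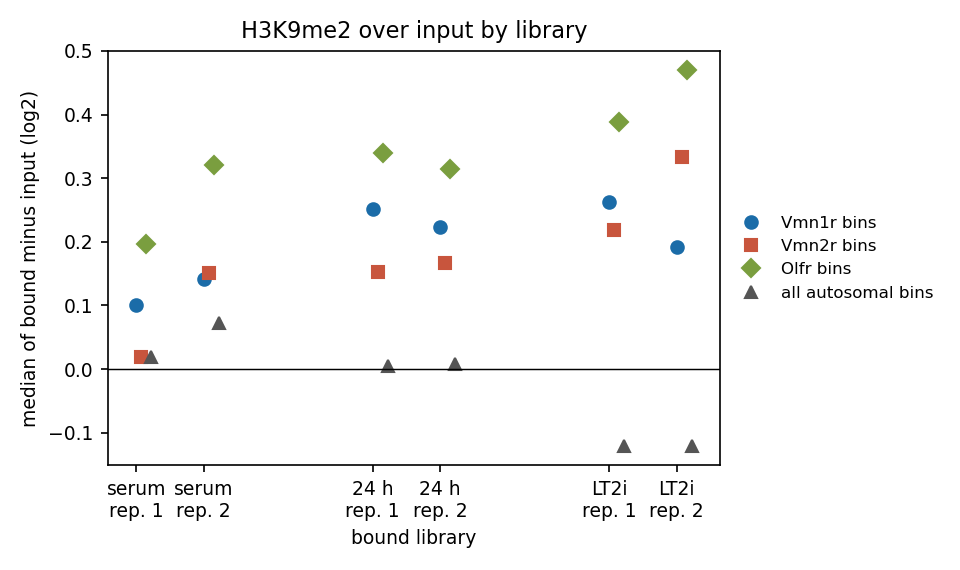
Median bound minus input difference (log2) over the bins of each set in each of the 6 bound libraries, against the input of the same medium. Vmn1r and Vmn2r medians lie between 0.02 and 0.33, below Olfr bins, and all autosomal bins fall to -0.12 in both LT2i libraries.

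Single bins were tested with limma across all 991903 bins with a mean of 5 or more reads, with Benjamini-Hochberg adjustment over all of them. A bin or gene passed at an adjusted p under 0.05. Of 824 vomeronasal receptor bins tested, 128 were higher in bound than input libraries (15.5%) and 18 were lower (2.18%). Over all bins 23.7% were higher and 27.5% lower. Bins had been kept by their input reads, which enter this difference, and the effect of that was not tested. After quantile normalisation 511 family bins were higher (62.0%) and 23 lower, against 38.0% and 27.2% of all bins, and the median was 0.87 where it had been 0.15, against 0.19 over all bins. Olfr bins gave 491 higher and 38 lower of 1646. Each medium had 1 input, which was assumed to vary like the bound libraries. Leaving out the LT2i input with its medium left 63 of the 146 calls in number, where 13.6% of all bins were higher and 17.3% lower. Without the 24 h input and its medium the number was 94, with 19.7% of all bins higher and 24.8% lower.

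Between media, reads summed over the bins of a gene gave firmer values than single bins. Gene spans with a mean of 10 or more reads were tested for 22198 autosomal genes, among them 163 vomeronasal receptor genes (92 Vmn1r and 71 Vmn2r). The remaining 162 had no bin or too few reads, and counts over the 163 do not describe the whole family.

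Bound over input, 43 of the 163 genes were higher (26.4%) and 7 were lower (4.29%), against 15.2% higher and 69.6% lower over all genes, where limma and Benjamini-Hochberg adjustment were used as before. The median was 0.21 for the family and -1.24 for all genes, most of which lie in chromatin with little of the mark. Of 925 Olfr genes 328 were higher (35.5%) and 20 lower (2.16%). Of Vmn1r genes 19 were higher and 4 lower, and of Vmn2r genes 24 and 3. These splits depend on the scaling. With each library centred on its median gene, which adds the same 1.44 to every gene, 158 genes were higher and 0 lower (48.1% and 38.2% of all genes), and the family's median was 1.65. With quantile normalisation 163 were higher, where 41.9% of all genes were higher and 44.1% lower, and the family's median was 2.00. Without the LT2i input and its medium 27 genes passed in either direction, and without the 24 h input and its medium 32 did. Over all genes 14.2% were then higher and 64.9% lower, and 13.2% and 68.8%, in that order.

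The firmest single value was that of Vmn2r120, a V2R gene at chr17:57508783-57545314 with 17 of its 19 bins present. It held 27.7 and 32.8 scaled reads per bin in serum, 31.9 and 34.4 at 24 h, and 33.1 and 34.1 in LT2i, whereas its inputs held 21.9, 21.3 and 20.3. All 6 bound libraries lay above all 3 inputs, by 0.61 ± 0.08 (log2, SE; adjusted p = 1.84e-06, limma). The other highest differences came from genes of 1 or 2 bins, Vmn1r89 (1.09), Vmn1r82 (0.89) and Vmn1r43 (0.83) among V1R genes and Vmn2r4 (1.03) and Vmn2r55 (0.92) among V2R genes, which all passed. The calls of Vmn1r82, Vmn2r4 and Vmn2r55 were lost without the LT2i input and its medium (0.64, 0.62 and 0.68). That of Vmn2r55 was also lost without serum bound replicate 1 (0.84), 24 h bound replicate 2 (0.81) or the 24 h input and its medium (0.87).

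At the low end stood Vmn1r234 (-1.20), Vmn1r1 (-1.20) and Vmn1r210 (-0.85) among V1R genes and Vmn2r115 (-1.03), Vmn2r11 (-0.75) and Vmn2r85 (-0.57) among V2R genes. All but Vmn2r85 passed, on 1 or 2 bins each, and all 6 were positive with centring, by the constant it adds to every gene, and with quantile normalisation. Leaving out a single library or input with its medium ended the calls of Vmn1r234 (serum input, -1.001), Vmn2r115 (24 h input, -0.68), Vmn1r210 (4 of the libraries or inputs, -0.61 to -0.83) and Vmn2r11 (7 of them, -0.41 to -0.84). That of Vmn1r1 held in each.

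After 24 h of 2i few genes passed. No bin of the family or of the genome passed (0 of 824 and 0% of 991903, limma), and at an unadjusted p under 0.05 stood 55 family bins (6.67%) against 6.79% of all bins. The median difference of the family bins was 0.14, compared with -0.02 over all bins, and 0.07 without serum bound replicate 1. In gene spans 2 of 163 genes were higher and 0 lower, against 0.149% and 2.23% of all genes, with 18 and 3 at an unadjusted p under 0.05 (11.04% and 1.84%, against 3.11% and 11.1% of all genes). The median over the 163 genes was 0.17, against -0.04 over all genes, and 0.0933 without serum bound replicate 1. Both 24 h libraries lay above both serum libraries in 59 of 163 genes (36.2%, against 16.9% of all genes). They lay below them in 12 (7.36%, against 29.5%).

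The 2 genes were Vmn2r103 and Vmn1r90. Vmn2r103 (chr17:19773363-19812536, 5 of 21 bins) held 13.0 and 12.7 scaled reads per bin in serum and 22.8 and 23.3 at 24 h, and 19.8 and 19.0 in LT2i. Both 24 h libraries lay above both serum libraries, by 0.84 ± 0.19 (SE, adjusted p = 0.0167, limma), and the LT2i libraries lay between (0.59 ± 0.19 over serum, adjusted p = 0.00832, and 0.19 as bound minus input). Vmn1r90 (chr7:14530654-14623066, 23 of 47 bins), unusually long for a V1R gene in this table, held 17.0 and 16.9 in serum, 21.3 and 22.0 at 24 h, and 22.5 and 22.1 in LT2i. Its difference was 0.35 ± 0.09 at 24 h (adjusted p = 0.0456) and 0.40 ± 0.09 in LT2i (adjusted p = 0.000799). Neither call at 24 h held when any single serum or 24 h library was left out. These fits leave a single library in a group, and fewer genes passed over all genes too. The values moved only between 0.82 and 0.85 and between 0.33 and 0.38.

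Other genes with large differences at 24 h did not pass. Among V1R genes the highest were Vmn1r74 (0.84), Vmn1r179 (0.74) and Vmn1r218 (0.70) and the lowest Vmn1r8 (-0.68), Vmn1r49 (-0.65) and Vmn1r21 (-0.60). Among V2R genes Vmn2r91 (1.32) and Vmn2r84 (0.74) stood highest beside Vmn2r103, and Vmn2r98 (-0.79), Vmn2r115 (-0.66) and Vmn2r10 (-0.64) lowest. Each rested on 1 to 4 bins. The direction turned for Vmn1r179 as bound minus input (-0.21) and for Vmn1r49 without 24 h bound replicate 1 (0.0209).

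On the deposited scale, more family genes were called higher than lower in LT2i against serum, while over all genes more were called lower. Of the 163 genes 42 were higher (25.8%) and 2 were lower (1.23%), while over all genes 7.24% were higher and 56.1% lower. The fall of the total amount of the mark that the paper reports does not enter these calls. Whether the amount of the mark at the genes called higher rose or fell was not tested. V2R genes made up most of the calls, with 31 higher and 0 lower of 71 (0 lower also at an unadjusted p under 0.05), and V1R genes gave 11 and 2 of 92. The median was 0.39 for V2R, 0.18 for V1R, 0.24 for Olfr and -0.72 for all genes, and the difference between the families was not tested. Of 925 Olfr genes 158 were higher (17.1%) and 35 lower (3.78%). The median standard error was 0.15 for V2R and 0.32 for V1R genes, and its part in the calls was not tested. Of single bins, 27 of 627 under V2R genes (4.31%) and 7 of 197 under V1R genes (3.55%) were higher, against 3.16% of all bins. Lower were 0 and 1 of these, against 8.93% of all bins. Both LT2i libraries lay above both serum libraries in 87 of 163 genes (53.4%, against 13.7% of all genes) and below them in 12 (7.36%, against 67.1%).

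The number of calls changed with the scaling. Centring each library on its median gene adds the same 0.74 to every gene. It gave 127 higher and 0 lower, where 30.96% of all genes were higher and 23.3% lower. Quantile normalisation gave 130 and 0, where 26.2% of all genes were higher and 24.6% lower. Under both scalings more genes were thus called higher than lower over all genes too. The family's median went from 0.27 to 1.02 and 0.99, and relative to the all-gene median it was the same with centring by construction. Without serum bound replicate 1, which leaves a single serum library, fewer genes passed in the family and over all genes. The family's median was then 0.20, where the all-gene median shifted by 0.05. When the difference was taken between bound minus input values, which adds the spread of the single inputs, 1 of the 163 genes passed, Vmn2r-ps54, and the median was 0.21. In that fit 379 genes were higher and 7372 lower over all genes.

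Single bins gave the same direction. Of 824 bins 34 were higher in LT2i (4.13%) and 1 was lower (0.121%), against 3.16% higher and 8.93% lower over all bins. Olfr bins gave 73 higher (4.43%) and 33 lower (2.00%) of 1646. Bins above 0 made up 69.9% of the family and 42.6% of all bins, and the medians were 0.26 and -0.15. With centring these medians were 0.42 and 0.0128, with quantile normalisation 0.46 and 0.0241, and as bound minus input 0.19 and -0.22. Similar regions lay close to the family on the deposited scale. Bins above 0 made up 67.0% of Olfr bins (median 0.22) and 66.3% of bins far from genes (median 0.22). The share was 69.1% in bins between vomeronasal receptor genes (median 0.32). Both LT2i libraries lay above both serum libraries in 317 bins (38.5%, against 23.8% of all bins) and below them in 79 (9.59%, against 34.6%). The bin calls depend on single libraries. Without serum bound replicate 1 or 2 no family bin passed in limma (9.47% and 13.2% at an unadjusted p under 0.05, against 20.1% and 22.8% of all bins), and only 7 and 8 bins of the genome did. Leaving out either LT2i bound library, which leaves a single LT2i library, also left fewer calls in the family and over all bins. None passed in the bound minus input fit, where no bin of the genome did. With serum bound replicate 1 left out the median was 0.16. In every class of input level up to 5 the family's median change lay above that of all bins, from 0.35 against 0.15 at input levels of 3 to 3.75 to 0.27 against -0.36 at 4.75 to 5.

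Among V2R genes measured over many bins, Vmn2r60 had the lowest p. At chr7:42116471-42195776, with 19 of 40 bins, it held 18.2 and 18.8 scaled reads per bin in serum, 21.7 and 20.1 at 24 h, and 26.7 and 31.2 in LT2i, with inputs of 18.1, 18.4 and 20.1. The serum libraries lay within the range of the inputs and the LT2i libraries above it, and the LT2i difference over serum was 0.64 ± 0.10 (adjusted p = 1.24e-05, limma). Vmn2r95 (chr17:18424104-18452324, 11 of 15 bins) held 14.7 and 15.0 in serum, 17.9 and 16.7 at 24 h, and 23.3 and 24.9 in LT2i, and was higher by 0.70 ± 0.13 (adjusted p = 8.02e-05). For both, the 24 h libraries lay between the other media without overlap and did not pass against serum.

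Other V2R genes with low p were Vmn2r-ps54 (0.51, 18 of 31 bins), Vmn2r17 (0.71, 7 of 17), Vmn2r74 (0.58, 6 of 6), Vmn2r24 (0.39, 18 of 20) and the single-bin gene Vmn2r91. For Vmn2r24, whose LT2i input was higher than the others (24.7 against 18.9 and 17.6 scaled reads per bin), the change was -0.00038 as bound minus input. The 1 bin of Vmn2r91, of 27, held 3.67 and 8.90 scaled reads in serum, 16.3 and 14.1 at 24 h and 23.1 and 23.8 in LT2i. The difference of 1.92 ± 0.48 (adjusted p = 0.00147, limma) was the largest among V2R genes, followed by Vmn2r4 (1.22, 1 of 14 bins) and Vmn2r55 (1.09, 1 of 18). Vmn2r4 did not pass without serum bound replicate 1 (0.88), nor Vmn2r55 without serum bound replicate 2 (0.83). The lowest V2R values, in Vmn2r11 (-0.36), Vmn2r106 (-0.18) and Vmn2r76 (-0.14), did not pass. All 3 were positive with centring, by the constant it adds to every gene, and with quantile normalisation, and Vmn2r76 was also positive as bound minus input (0.10).

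Among V1R genes the largest difference was that of Vmn1r65 at chr7:6007750-6011010, with 2 of 3 bins. It held 17.8 and 18.4 scaled reads per bin in serum, 28.5 and 18.1 at 24 h, and 40.4 and 55.1 in LT2i, where its inputs held 24.2, 21.5 and 25.6. The bound libraries lay below every input in serum and above every input in LT2i, and the difference was 1.37 ± 0.26 (adjusted p = 0.000101, limma). Vmn1r71 (chr7:10747502-10749538, 2 of 2 bins) held 30.01 and 26.7, 39.1 and 45.6, and 69.3 and 49.1 in the same order, and was higher by 1.04 ± 0.21 (adjusted p = 0.000184). Vmn1r73, a single bin, came next at 0.86 and did not pass without serum bound replicate 1 (0.47) or LT2i bound replicate 1 (0.75).

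The 2 genes that were lower in LT2i were both V1R. Vmn1r1 (chr1:182157144-182158319, 2 of 2 bins), the only receptor of the family on its chromosome, held 11.6 and 15.9 scaled reads per bin in serum, 13.0 and 17.3 at 24 h and 6.42 and 5.21 in LT2i. It fell by 1.18 on the log2 scale (SE 0.37, adjusted p = 0.00853, limma), but its inputs differed as well, with 36.3 in serum, 26.5 at 24 h and 15.8 in LT2i, and as bound minus input the change was -0.00405. Its call was also lost without serum bound replicate 2 (-0.96) and under both other scalings (-0.44 with centring, which adds 0.74 to every gene, and -0.25 with quantile normalisation). Vmn1r235 (chr17:21260427-21262863, 2 of 2 bins) was lower by -0.52 ± 0.21 (adjusted p = 0.0355), and not without serum bound replicate 1 (-0.40) or LT2i bound replicate 2 (-0.44). As bound minus input it was -0.87 and did not pass. It was positive with centring, by that constant, and with quantile normalisation. Vmn1r80 (-0.66, 1 bin) did not pass and turned positive under the same scalings.

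**Figure D3:**
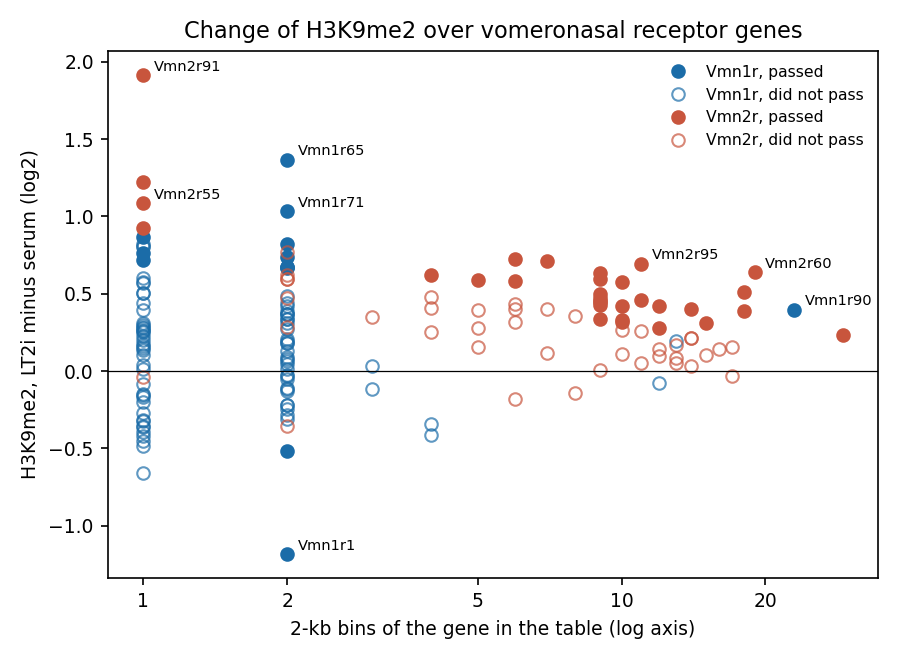
LT2i minus serum difference (log2) of the 163 vomeronasal receptor gene spans tested, against the number of their bins in the table (log axis), with filled points for genes that passed the test in limma. Genes over many bins lie mostly above 0, and the widest values, from -1.18 to 1.92, come from genes with 1 or 2 bins.

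Genes lay in 26 clusters, runs of vomeronasal receptor genes on 1 chromosome with gaps of 1 Mb or less, and 14 of these held 5 or more genes (304 genes and 711 bins in all). Their median bound minus input difference (mean of media) ran from -0.43 in the V1R cluster from Vmn1r32 to Vmn1r39 on chromosome 6 (9 bins) to 0.52 in that from Vmn1r40 to Vmn1r54 on the same chromosome (23 bins). No test was made between clusters, whose bins share their libraries.

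On chromosome 7, V2R genes and mixed clusters gave many of the LT2i calls. The cluster from Vmn2r29 to Vmn1r89 (chr7:7231327-13220289), in which both families are mixed, had 65 of 395 bins, a median of 0.25 in serum, 0.54 at 24 h and 0.54 in LT2i, and 10 of its 26 tested genes were higher in LT2i, where 7.24% of all genes were higher and 56.1% lower. In the V2R cluster from Vmn2r65 to Vmn2r79 (chr7:84940169-87037968) the median change of its 78 bins was 0.49, and 7 of 12 genes were higher. The cluster from Vmn2r57 to Vmn2r63 (87 bins) had a median change of 0.33 with 2 of 7 genes higher, and that from Vmn1r55 to Vmn1r65 (6 bins) 0.60 with 1 of 3. The largest cluster by genes, from Vmn1r91 to Vmn1r183 with 62 V1R genes, kept 7 of 111 bins and had a median change of 0.01 with 0 of 4 genes called.

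On chromosome 17 the mixed cluster from Vmn2r90 to Vmn1r237 (193 bins) had a median change of 0.18, with 10 genes higher and 1 lower of 33. Its neighbour from Vmn2r111 to Vmn2r117 (20 of 102 bins) had a bound minus input median of -0.32 and 0 of 4 genes called. The median standard error of the LT2i difference was 0.32 for V1R and 0.15 for V2R genes, and its part in the calls per cluster was not tested. The V1R cluster of chromosome 13, from Vmn1r188 to Vmn1r223, had a median change of 0.04 over 32 bins and 0 of 21 genes called, and that of chromosome 6 from Vmn1r4 to Vmn1r31 one of -0.15 over 32 bins and 0 of 12. The cluster from Vmn1r32 to Vmn1r39 had a median of -0.42 with 0 of 3 genes called, and that from Vmn1r40 to Vmn1r54 one of 0.12 with 1 of 11, where 7.24% of all genes were higher. The V2R clusters from Vmn2r1 to Vmn2r7 on chromosome 3 (0.30, 3 of 5 genes higher), from Vmn2r8 to Vmn2r17 on chromosome 5 (0.49, 2 of 4) and from Vmn2r19 to Vmn2r27 on chromosome 6 (0.19, 2 of 5) all had positive medians.

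**Figure D4:**
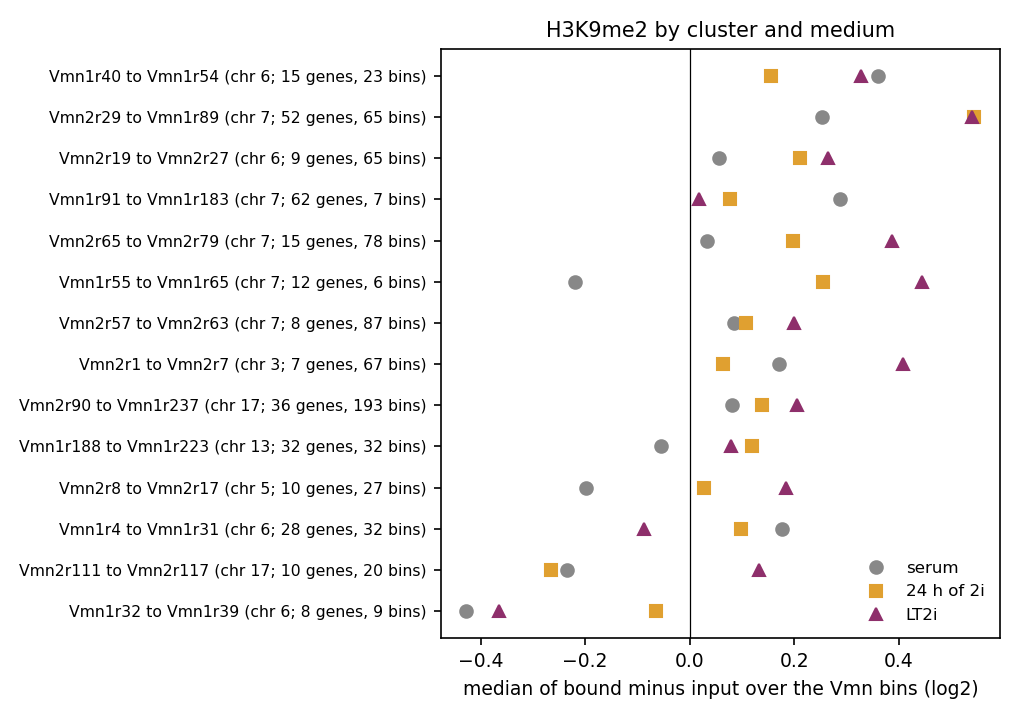
Median bound minus input difference (log2) over the bins of each of the 14 clusters with 5 or more vomeronasal receptor genes, in serum, at 24 h and in LT2i. The cluster from Vmn2r29 to Vmn1r89 moves from 0.25 in serum to 0.54 at 24 h and in LT2i, and that from Vmn2r65 to Vmn2r79 from 0.03 to 0.20 and 0.39.

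RNA of the family was mostly at the no-read floor. In 293 of 325 genes (90.2%) no read was seen in any of the 12 libraries, against 22.4% of all autosomal genes and 96.6% of Olfr genes. The share was 94.0% for Vmn1r and 83.9% for Vmn2r, 16 genes had reads in 1 or 2 libraries, and 16 in 3 or more. Reads are given below as recovered from the deposited log2 values, with a gene of no reads entered by the authors as 0.9 reads. For 5 genes reads were seen in all 12 libraries, and Vmn1r58, at a mean of 0.81 on the log2 scale per length, was the highest of them. Its reads could not be recovered and it had no bin in the ChIP-seq table. It did not pass at any time (adjusted p of 0.141 to 0.954, limma).

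The test covered 18559 genes with reads in 3 or more libraries, 16 of them vomeronasal receptors. At 6 h 1 of the 16 was higher and 1 lower (all genes 7.71% and 4.90%), at 24 h 2 and 2 (27.5% and 23.4%), and at 72 h 0 and 1 (22.0% and 22.2%, with 1 and 2 of the 16 at an unadjusted p under 0.05). All calls came from 4 genes.

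Vmn2r55 (chr7:12651706-12684991), the V2R gene with the most reads, had 96, 74 and 142 reads in serum and 73, 107 and 124 at 6 h, then 2, 3 and 17 at 24 h and 12, 7 and 16 at 72 h. The 24 h and 72 h libraries all lay below every serum and 6 h library. It fell by 4.42 on the log2 scale at 24 h (SE 0.56, adjusted p = 7.42e-05, limma) and fell by 3.28 at 72 h (adjusted p = 0.000601), and did not differ at 6 h beyond its error (0.03 ± 0.56). Vmn1r65 had 41, 28 and 51 reads in serum, 9, 23 and 31 at 6 h, 1, 4 and 32 at 24 h and 7, 4 and 17 at 72 h. It was lower at 24 h by -2.94 ± 0.94 (adjusted p = 0.0211) and missed the threshold at 72 h (-2.41, adjusted p = 0.0556), which it passed with the replicate number as a block and in 6 of the other alternatives.

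In both of these genes the third library of 24 h stood apart with more reads than the other two, and for Vmn1r65 it overlapped serum. The 24 h call of Vmn1r65 was lost without serum replicate 1 or 3 or 24 h replicate 1 or 2 (-1.85 to -2.90), and its 72 h value passed without 72 h replicate 3 (-3.01) or 24 h replicate 1 or 3. Both genes were also among the V1R and V2R genes with the highest LT2i difference in H3K9me2 (1.37 and 1.09). As bound minus input the values were 1.29 and 1.08, and neither passed. The value of Vmn2r55 came from a single bin that does not hold the gene's start. The mark was measured at 24 h and in LT2i, and RNA was not measured in LT2i. At the shared time of 24 h the H3K9me2 differences of 0.33 and 0.69 did not pass (adjusted p of 0.653 and 0.420).

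Vmn2r1 (chr3:64081642-64105458) and Vmn1r53 (chr6:90223317-90224438) moved otherwise. Vmn2r1 had 9, 5 and 12 reads in serum, 2, 2 and 3 at 6 h, 18, 14 and 29 at 24 h, and 4, 7 and 9 at 72 h. All 6 h libraries lay below and all 24 h libraries above serum (-1.78 ± 0.40 with adjusted p = 0.0122, and 1.26 ± 0.40 with adjusted p = 0.020, limma), and at 72 h the difference was -0.46. Vmn1r53 had 0, 0 and 4 reads in serum, 12, 9 and 6 at 6 h, 8, 2 and 9 at 24 h, and 6, 7 and 3 at 72 h. It was higher at 6 h (2.60 ± 0.63, adjusted p = 0.0185) and 24 h (1.83, adjusted p = 0.0301), with 24 h overlapping serum in 1 library, and missed the threshold at 72 h (1.66, adjusted p = 0.0504).

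These calls rest on few reads. For Vmn1r53 the 6 h call was lost without serum replicate 1 or 2 or 6 h replicate 1 or 2 (2.24 to 2.58), and the 24 h call without any of 4 libraries (1.45 to 1.61), on a scale of log2(2^value + 1) (0.25) and with only the 6 libraries compared. Its 72 h value passed without serum replicate 3 (2.24), 72 h replicate 3 (2.00) or any 24 h library, and in 2 other alternatives. For Vmn2r1 the 6 h call was lost without 6 h replicate 2 (-1.67) or on a scale of log2(2^value + 1) (-0.15), and the 24 h call without serum replicate 2 or 24 h replicate 1 or 3 (1.04 to 1.24). In H3K9me2, Vmn2r1 with all 13 of its bins differed from serum by 0.12 at 24 h and 0.17 in LT2i, and Vmn1r53 by 0.19 and 0.39, none of which passed.

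**Figure D5:**
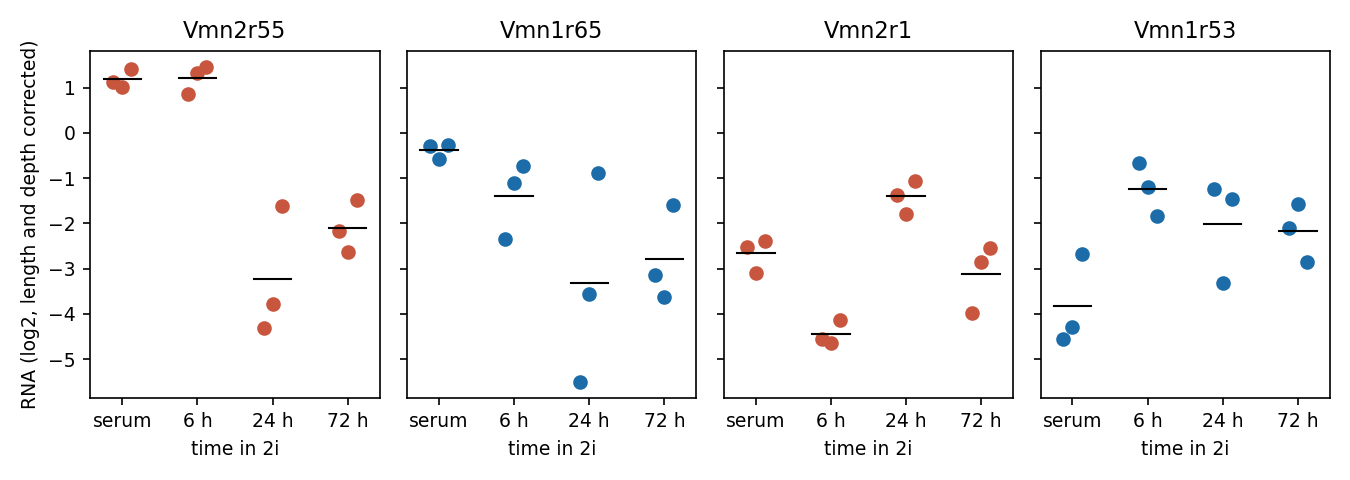
RNA level (log2, corrected for length and depth) of Vmn2r55, Vmn1r65, Vmn2r1 and Vmn1r53 in each of the 3 libraries in serum and at 6, 24 and 72 h of 2i, with lines at the means. In recovered reads, which are not drawn, Vmn2r55 drops from 74 to 142 in serum to 2 to 17 at 24 h. The third 24 h library of Vmn1r65 holds 32 reads against 1 and 4 in the others.

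Of the other genes with reads, Vmn1r90 had 8, 6 and 8 in serum, 9, 10 and 14 at 6 h, 7, 8 and 10 at 24 h and 6, 0 and 18 at 72 h, with no call. Vmn2r-ps104 had from 4 to 59 reads and no call. Vmn2r-ps54, Vmn2r3, Vmn2r18, Vmn2r90, Vmn2r84, Vmn2r57, Vmn1r227, Vmn2r85 and Vmn2r16 had at most 9 reads in any library. Vmn2r57 overlaps Gm20449 and Vmn2r-ps54 overlaps Gm10948, and without strand their reads cannot be told apart from those of these neighbours.

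Genes that vomeronasal neurons use beside the receptors were taken from a list of 19 (channels, G protein subunits, chaperones and transport proteins). Of these, 10 had no reads in any library, namely Rtp1, a receptor transport protein, and the 9 H2-M genes, whose class I molecules are found in V2R neurons. The 4 vomeronasal formyl peptide receptors (Fpr-rs3, Fpr-rs4, Fpr-rs6 and Fpr-rs7) had none either. In limma 1 of the 9 tested was higher at 6 h and 3 were at both later times, where 7.71%, 27.5% and 22.0% of all genes were. None was lower, although Gng8 and Ano1 at 72 h had an unadjusted p under 0.05 (-1.86 and -1.02).

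Calr4, an endoplasmic reticulum chaperone of vomeronasal neurons, rose at all times by 2.85, 4.08 and 6.32 from a mean of -4.71 in serum (log2 level per length). Gnai2, the V1R subunit that many cells also use, rose by 0.53 at 24 h and 0.95 at 72 h, Gnao1, the V2R subunit, by 1.61 at 24 h, and Rtp2 by 4.23 at 72 h. Trpc2, the channel that both families need, had a mean of 1.77 in serum and no call, nor had Gng8, a G protein gamma subunit, or Omp, the olfactory marker protein.

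Among factors that act in the fate of these neurons, Meis2 was higher at 6 h (2.12) and at 72 h (0.89). Lhx2 was higher at 24 h (2.38) and at 72 h (3.02), and Tfap2e was lower at 72 h (-1.55). Bcl11b had no call. Over all genes 7.71%, 27.5% and 22.0% were higher at 6, 24 and 72 h, and 22.2% were lower at 72 h. Of the feeder cell markers 2 of 4 were lower at 24 h and 3 at 72 h, where 23.4% and 22.2% of all genes were lower. Whether these markers have a part in the receptor values was not tested.

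H3K9me2 was tested over the same gene lists. Of 18 tested genes of the list of 19, 8 were higher and 5 lower in bound than input libraries (all genes 15.2% and 69.6%), with a median of 0.25. In LT2i 2 were higher and 7 lower (all genes 7.24% and 56.1%), with a median of -0.35. The lower ones in LT2i included Trpc2 (-1.53), Calr4 (-1.79), Gnai2 (-1.96), Omp (-1.80) and Gnao1 (-0.36), and the higher ones were Ano2 (0.28), a chloride channel, and H2-M11 (0.66). Of 3 formyl peptide receptor genes tested 2 were higher in LT2i, Fpr-rs3 (0.76) and Fpr-rs4 (0.74). Lhx2 (-1.52), Tfap2e (-1.26) and Meis2 (-0.15) were lower in bound than input libraries.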

How the data were processed

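The authors deposited 1 log2 value per 2-kb bin and ChIP-seq library, reads scaled to the deepest library with 0 reads entered as 0.9, and 1 log2 value per gene and RNA-seq library, corrected for length and depth. The antibody was Abcam ab1220, and RNA libraries (TruSeq v2, single-end) carry no strand. The submitters' processing notes name Trim Galore 0.3.5, TopHat2 2.0.11, Bismark 0.12.3, Bowtie2 and GRCm38, without roles. Scripts undid the scaling (values whole within 0.02 reads) and summed reads per gene span, plus 0.5. Differences were tested in R 4.3.3 with limma 3.58.1 (moderated, with a mean trend) and Benjamini-Hochberg adjustment, on all libraries of an assay and on the 6 bound libraries between media. The fits were tested on simulated data.

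Members and gene lists were chosen with earlier results of these data known. Named genes were the 3 highest and 3 lowest of each family per comparison, called genes by p (up to 10), genes with the most RNA (up to 12), listed genes and clusters of 5 or more genes. Groups came from the labels. Python 3.11.15 handled tables and promoters. Same-numbered ChIP-seq libraries did not deviate together (correlations of -0.01 to 0.05 for gene spans). In RNA-seq the correlations ran from -0.08 to 0.52, above 0.1 for every pair of replicate 3 but not for every pair, so no pairing was used. Bisulfite data, in another genome build, were not used here. Alternatives varied the filter, scaling, offset, overlap, fold threshold, inputs and libraries. Total RNA-seq depth is unknown. The result of 1 listed gene is not reported here.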

Additional observations from a re-analysis of the deposited data

Results flagged for a closer look

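For 4 genes every library of a given time in 2i lay above or below all serum libraries, and every library of another time lay on the other side. The difference between the times was not tested. RNA of Vmn2r1 was below serum at 6 h and above it at 24 h, which set the times apart by 3.04 on the log2 scale, on 2 to 29 reads per library. H3K9me2 of Vmn2r98, on 1 of 15 bins, was below serum at 24 h (-0.79) and above it in LT2i (0.92), a difference of LT2i minus 24 h of 1.71. H3K9me2 of Vmn2r76 was 0.09 above serum at 24 h and -0.14 from it in LT2i, a difference of -0.23. For Vmn2r106 these values were 0.20, -0.18 and -0.39. The LT2i direction of both depends on the scaling. It was positive with centring (0.61 in Vmn2r76 and 0.56 in Vmn2r106) and with quantile normalisation (0.53 and 0.55), and in Vmn2r76 as bound minus input (0.10).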

How the results depend on the processing

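Counts are of vomeronasal receptor bins or genes passing in either direction. For bins, bound over input gave 146 and, after quantile normalisation, 534. Over all bins 23.7% were higher and 27.5% lower, and 38.0% and 27.2% after quantile normalisation. LT2i bins gave 35, then 58 with libraries centred on their medians and 60 with log2 of reads plus 2. Over all bins 3.16% were higher and 8.93% lower, then 5.78% and 6.52% centred, and 5.13% and 11.2% with reads plus 2. The number was 0 after quantile normalisation, which called 0.000605% of all bins higher and 0% lower. It was also 0 as bound minus input, where 0% of all bins passed. For gene spans, bound over input gave 50, then 158 centred, 163 by quantile normalisation and 26 with a difference of at least 0.5. Over all genes 15.2% were higher and 69.6% lower, then 48.1% and 38.2% centred. Quantile normalisation gave 41.9% and 44.1% of all genes, and the threshold of 0.5 gave 7.46% and 64.3%. At 24 h the 2 calls became 1 with that threshold and 0 as bound minus input. Over all genes 0.149% were higher and 2.23% lower, then 0.0676% and 0.509%, and 0% and 0%. In LT2i 44 became 127 centred, 130 by quantile normalisation, 27 with the threshold and 1 as bound minus input. Over all genes 7.24% were higher and 56.1% lower at first. Centring gave 30.96% and 23.3%, quantile normalisation 26.2% and 24.6%, the threshold 2.70% and 50.8%, and bound minus input 1.71% and 33.2%. RNA calls with log2(2^value + 1) were 1 at 6 h (2 in the report) and 2 at 72 h (1 in the report). Over all genes that scale gave 7.75% higher and 5.80% lower at 6 h, and 21.5% and 21.9% at 72 h. At 72 h the RNA calls were also 3 after quantile normalisation, 3 with the replicate block and 3 with only the 6 libraries compared. Quantile normalisation called 22.9% of all genes higher and 23.0% lower at that time. The family's median of bound minus input over bins, 0.15, became 0.24 with a minimum of 10 mean reads in place of 5. With that minimum the median over all bins shifted up by 0.16, more than that of the family. As a ratio of sums the family's value was 0.21. The median of the tested bins, also 0.15, became 0.87 by quantile normalisation. The cause of these shifts was not tested.

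Leaving out 1 library in turn (or 1 input with its medium, 63 to 94 and 27 to 32 calls where these counts moved) gave 63 to 144 calls for bound over input bins, 0 to 0 at 24 h and 0 to 37 in LT2i. Gene spans gave 27 to 55, 0 to 2 and 23 to 43 in the same order. RNA with 1 library left out gave 0 to 3 calls at 6 h, 1 to 4 at 24 h and 1 to 5 at 72 h. Replicate numbers in the labels were not taken as pairs, since not every correlation of same-numbered libraries was above 0.1. In RNA, number 3 gave 0.17 to 0.52. With the number as a replicate block the LT2i counts were 45 bins and 48 gene spans, and the 24 h counts 0 and 2. In LT2i the block called 3.77% of all bins higher and 9.94% lower, and 7.98% and 57.1% of all genes. RNA with the block gave 2 at 6 h and 5 at 24 h.

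Centring adds 1.44 to every gene span bound over input and 0.74 to every LT2i change, so low values turn positive by construction. With centring and with quantile normalisation, bound over input became 0.25 and 1.07 in Vmn1r234, 0.25 and 0.73 in Vmn1r1, 0.59 and 1.20 in Vmn1r210, 0.42 and 1.13 in Vmn2r115, 0.70 and 1.42 in Vmn2r11, and 0.87 and 1.53 in Vmn2r85. The LT2i change became 0.0843 and 0.32 in Vmn1r80, 0.23 and 0.22 in Vmn1r235, 0.39 and 0.60 in Vmn2r11, 0.56 and 0.55 in Vmn2r106, and 0.61 and 0.53 in Vmn2r76. As bound minus input the LT2i change was 0.10 in Vmn2r76 and -0.000379 in Vmn2r24, and the 24 h change of Vmn1r179 was -0.21. The 24 h change of Vmn1r49 ran from -1.32 to 0.0209 without single libraries. RNA of Vmn2r55 at 6 h was -0.0276 after quantile normalisation and as low as -0.0915 (-0.0484 and -0.0147 in other cases) without single libraries. Depth limits single bins, which held a median of 14 to 23 reads.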
